A study of Mus musculus with 44 samples.

Results

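The 5 dopamine receptor genes of the mouse, Drd1, Drd2, Drd3, Drd4 and Drd5, were followed through every readout of a study of the brain in Polg(D181A) mice. They were chosen by name, and they are 5 of the 53715 genes in the RNA table and 5 of the 21887 protein-coding genes of the reference table. In the chromatin tables, every peak that overlapped the gene span extended by 5 kb on each side (build mm10) was assigned to the gene.

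All animals were labelled adult and were either wild type (WT) or Polg(D181A), called the mutant here. Polg encodes the catalytic subunit of the mitochondrial DNA polymerase, and the chromatin tables name the mutant columns TG. H3K27ac was profiled by chromatin immunoprecipitation in the nucleus accumbens (NAC), the caudate putamen (CP), the cortex (COR) and the paraventricular nucleus of the thalamus (PVT), with 2 WT and 2 mutant libraries per region, and ATAC-seq covered 2 WT and 2 mutant PVT libraries. For both assays nuclei were stained for the neuronal protein NeuN and sorted. RNA came from PVT in 5 groups of 4 libraries: COX-positive cells of euthymic WT animals, and COX-positive or COX-negative cells of mutants in the euthymic or the depressive state. COX is taken here as cytochrome c oxidase, the respiratory chain enzyme whose staining is used to find cells with defective mitochondria. The strain was given as C57BL/6 for H3K27ac and RNA, and as C57BL/7, C57BL/8, C57BL/9 and C57BL/10 for the 4 ATAC libraries in turn. The sources used here do not give the promoter of the mutant allele, the number of lines or any pooling of animals. Nothing in the labels says that replicates were separate animals, and p-values therefore measure only the spread between libraries, part of which may be technical.

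Dopamine receptors are G protein-coupled receptors in 2 families. The D1-like receptors, encoded by Drd1 and Drd5, act through Gs and Golf and stimulate adenylyl cyclase; the D2-like receptors, encoded by Drd2, Drd3 and Drd4, act through Gi and Go and inhibit it. In the striatum, Drd1 marks projection neurons of the direct pathway and Drd2 those of the indirect pathway, Drd3 is best known from the ventral striatum, and Drd2 and Drd3 are expressed in the midline thalamus. H3K27ac marks active promoters and enhancers, and ATAC-seq reads accessible chromatin.

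The 250 bases upstream of each start site are shown because the chromatin data divide the receptors by what covers these stretches. They come from RefSeq on GRCm38.p6, the assembly of mm10, are read 5′ to 3′ on the gene's strand, and carry in capitals each GC box, GGGCGG on either strand (CCGCCC in reverse). RefSeq gave 1 start site for each gene except Drd1, which has 2.
Drd1, site 1, minus strand of chr13:54055659-54055908: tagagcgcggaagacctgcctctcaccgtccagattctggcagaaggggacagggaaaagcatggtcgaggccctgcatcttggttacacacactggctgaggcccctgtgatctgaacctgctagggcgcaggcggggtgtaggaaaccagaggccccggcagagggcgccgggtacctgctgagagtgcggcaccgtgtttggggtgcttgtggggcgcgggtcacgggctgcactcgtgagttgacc
Drd2, plus strand of chr9:49340153-49340402: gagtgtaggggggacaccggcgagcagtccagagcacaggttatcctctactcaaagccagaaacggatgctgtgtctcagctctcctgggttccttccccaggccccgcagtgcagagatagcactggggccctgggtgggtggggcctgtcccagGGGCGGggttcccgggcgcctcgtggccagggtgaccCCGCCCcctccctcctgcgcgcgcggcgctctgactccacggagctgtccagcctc
Drd3, plus strand of chr16:43761971-43762220: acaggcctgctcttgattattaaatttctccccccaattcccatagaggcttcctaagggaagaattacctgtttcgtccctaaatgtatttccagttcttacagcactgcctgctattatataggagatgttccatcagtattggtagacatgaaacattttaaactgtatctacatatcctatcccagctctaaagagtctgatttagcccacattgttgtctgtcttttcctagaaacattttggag
Drd4, plus strand of chr7:141291768-141292017: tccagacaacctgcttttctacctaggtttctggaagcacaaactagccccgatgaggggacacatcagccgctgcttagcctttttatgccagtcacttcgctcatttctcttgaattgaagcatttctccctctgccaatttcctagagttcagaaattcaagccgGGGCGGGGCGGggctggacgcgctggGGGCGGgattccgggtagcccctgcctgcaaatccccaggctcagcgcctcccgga
Drd5, plus strand of chr5:38319259-38319508: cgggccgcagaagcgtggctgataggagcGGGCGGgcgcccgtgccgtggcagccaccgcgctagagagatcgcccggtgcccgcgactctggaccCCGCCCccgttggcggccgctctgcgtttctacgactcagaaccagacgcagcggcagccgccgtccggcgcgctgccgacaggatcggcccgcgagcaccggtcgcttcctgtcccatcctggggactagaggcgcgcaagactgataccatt

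Drd5 had the most CpG-rich promoter of the 5, with 71.2% G and C and 35 CpG, and Drd3 the most AT-rich, with 39.2% G and C and 1 CpG. The Drd3 start site lies 8206 bp inside the gene span and under no peak, so its stretch is not the sequence at the 5′ end of the span. Over all 32851 promoters of the table the medians were 52.4% and 6 CpG, which put Drd5 at the 97.0th percentile for CpG and Drd3 at the 7.87th. The upstream stretch held 2 GC boxes in Drd2, 3 in Drd4 and 2 in Drd5, and none in Drd3 or at site 1 of Drd1; 32.7% of all promoters hold at least 1. The second Drd1 site, upstream stretch chr13:54054781-54055030, had 60.8% G and C, 5 CpG and 1 GC box. The letters TATAAA (12.4% of all promoters), TGACGTCA (1.55%) and TGACTCA (4.46%), each searched on both strands, were in none of the stretches. A letter match is a description of the sequence and shows no binding.

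Drd2 and Drd3 are long genes with many introns, at chr9:49340360-49408177 and chr16:43754015-43825982, spanning 67.82 and 71.97 kb. Drd1 (chr13:54051183-54055658), Drd4 (chr7:141291974-141296464) and Drd5 (chr5:38319509-38322523) span 4.48, 4.49 and 3.02 kb. The extended windows also reach other genes: the long non-coding RNA Gm46111 at the 3′ end of Drd2, Deaf1 beyond the 3′ end of Drd4, and the long non-coding RNAs Gm34193 and Gm26560 around Drd5. A peak over such a neighbour cannot be told apart from one that belongs to the receptor.

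H3K27ac values are read counts in peaks scaled to library size (CPM, with TMM scaling over all 16 H3K27ac libraries), and are given in the order WT 1, WT 2, mutant 1, mutant 2. Total counts per library ran from 52759552 to 146450422 in PVT, 52566179 to 197650530 in COR, 12048787 to 101443484 in CP, 6415127 to 80516545 in NAC and 2932270 to 8040451 in ATAC. WT 2 of CP and WT 2 of NAC stood apart: 80.8% and 69.6% of all their peaks held no read, against 7.10% to 13.8% in PVT and 15.7% to 41.9% in COR. CP mutant 1 followed with 52.5%, and the other CP and NAC libraries had 19.9% to 30.5%. Replicates were much more alike in PVT (lowest Spearman correlation between 2 libraries 0.564) than in CP (-0.095) or NAC (0.0812). The region labels were checked with summed H3K27ac at marker genes. The midline thalamus list summed to 1378 to 1725 CPM in PVT and at most 89.5 in any other library, the cortical list to 640.6 to 993.3 CPM in COR and at most 196.4 elsewhere, and the striatal list to 2611 to 4823 in CP and 2333 to 3400 in NAC, against at most 1553 in PVT and COR. Oligodendrocyte markers summed to 266.7 to 614.0 CPM over the 16 sorted libraries, highest in COR, and their part in the results was not tested.

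**Figure D1:**
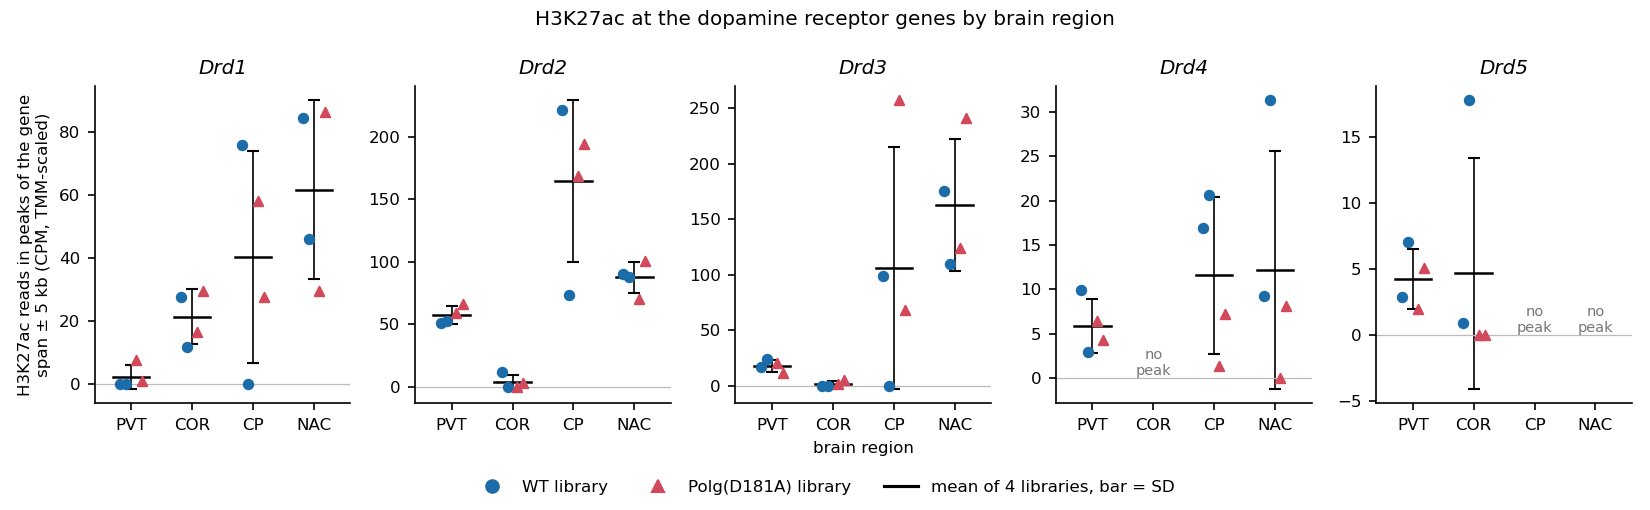
Summed H3K27ac (CPM, vertical axis, linear, a separate scale per gene) in the peaks of each receptor window by brain region; circles are WT and triangles mutant libraries, black bars the mean ± SD of 4. Drd1 and Drd3 were high in NAC and near 0 in at least 1 other region, Drd2 was near 0 in COR, and Drd5 had no peak in CP or NAC.

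The gene for the D1 receptor carried H3K27ac over both start sites in NAC and over the second in COR, and over neither in PVT or CP. Over all RefSeq start sites, H3K27ac peaks covered 27.7% in NAC, 28.6% in COR, 31.5% in PVT and 14.1% in CP. In NAC a single peak of 8577 bp ran over the whole gene and both start sites, and in COR a peak of 2402 bp, which lay wholly inside the NAC peak, covered the second start site. In PVT the window held 1 peak of 418 bp, 3.0 kb upstream, and in CP 1 peak of 327 bp upstream and 1 of 3251 bp beyond the 3′ end.

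Summed H3K27ac at Drd1 was 84.4, 46.0, 29.5 and 86.3 CPM in NAC and 27.7, 11.9, 16.5 and 29.6 in COR. In CP it was 75.7, 0, 58.2 and 27.7, and in PVT 0.229, 0, 7.84 and 1.15. Every NAC library and every COR library thus lay above the highest PVT library, and the 0 in CP came from the library with 80.8% empty peaks. How many of all genes separate in this way was not counted. The mean was 61.5 ± 28.3 CPM in NAC, 40.4 ± 33.4 in CP, 21.4 ± 8.61 in COR and 2.31 ± 3.73 in PVT (SD, n = 4), an order in which only the distance of NAC from PVT passed the test.

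Drd5 encodes the other D1-like receptor, which has the higher affinity for dopamine, and carried little H3K27ac. PVT had a peak of 1058 bp over its start site, chr5:38318804-38319861, with 2.89, 7.04, 1.98 and 5.05 CPM. The long non-coding RNA Gm26560 spans the same place. COR had 384 bp 3.72 kb upstream, over Gm34193, with 0.920, 17.7, 0 and 0 CPM, and CP and NAC had no peak in the window. The start of Drd5 was therefore marked in PVT and in no other region, where its nearest peaks lay 3.72 kb (COR), 14.04 kb (CP) and 46.81 kb (NAC) away.

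Drd2, whose receptor is the principal target of antipsychotic drugs, carried H3K27ac at many intronic and 3′ sites in PVT, CP and NAC, with 12, 20 and 12 peaks, and at 1 peak in COR. Its RefSeq start site lay outside every H3K27ac peak, with the nearest 853 bp away in PVT, 452 bp in CP, 732 bp in NAC and 64.2 kb in COR. Summed H3K27ac was 221.6, 73.1, 168.8 and 194.2 CPM in CP, 90.3, 87.9, 70.4 and 100.6 in NAC, and 50.8, 52.6, 58.8 and 66.3 in PVT. In COR it was 11.4, 0, 0 and 2.75, from 1 peak of 336 bp near the 3′ end of the gene, over Gm46111. The 4 COR libraries were therefore below all 12 others, and the PVT libraries were all below the CP and NAC libraries. The share of all genes with such separations was not counted. In the edgeR tests given below, 38.8% of all genes had an unadjusted p under 0.05 in COR against PVT and 35.1% in NAC against PVT. Drd2 passed in neither pair.

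The Drd2 peaks were partly shared between regions. Of the 20 CP peaks, 10 overlapped a NAC peak and 9 a PVT peak, by at least 1 base; of the 12 NAC peaks, 8 overlapped a CP peak and 4 a PVT peak. The striatal regions shared an intronic site, chr9:49360003-49360756 in CP with 1.62, 29.1, 17.1 and 40.7 CPM and chr9:49360182-49360807 in NAC with 8.89, 35.8, 3.77 and 4.74. The 29.1 and the 35.8 came from WT 2 of each region, with 80.8% and 69.6% empty peaks. PVT had a peak over the same intronic site, chr9:49360275-49361188, with 6.82, 6.95, 9.54 and 8.33 CPM, so the site was marked in 3 of 4 regions. Both NAC mutant libraries lay below every PVT library there. The longest PVT peaks of the gene, chr9:49357180-49358623 with 11.3, 10.3, 14.7 and 15.4 CPM and chr9:49385243-49387628 with 8.16, 14.3, 11.7 and 13.6, had reads in every library. The longest NAC peak of the window, 3845 bp at chr9:49407302-49411146, covered the 3′ end of the gene and lay mostly over Gm46111, and the CP peak chr9:49408343-49410523 lay just beyond the 3′ end, over Gm46111.

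Drd3 had its most extended H3K27ac in NAC, with 8 peaks over 19717 bp, against 10 over 7310 bp in CP, 4 over 2411 bp in PVT and 1 of 251 bp in COR. Summed values were 175.3, 109.9, 124.1 and 241.4 CPM in NAC, 17.3, 23.9, 20.8 and 11.4 in PVT, and 0, 0, 1.39 and 5.52 in COR. In CP they spread from 0 to 257.1 CPM (98.7, 0, 257.1 and 68.6), the 0 again in the library with most empty peaks and the highest value in CP mutant 1, with 52.5% empty peaks. All NAC libraries lay above all PVT and COR libraries, a separation whose share over all genes was not counted. CP values ranged from below every PVT library to above every NAC library.

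The largest NAC peak at Drd3, 7200 bp at chr16:43753583-43760782, covered the 5′ end of the gene span with 45.4, 32.6, 38.4 and 69.3 CPM. The start site in the RefSeq promoter table lies 8206 bp inside the span, and no peak of any table covered it; the nearest was this NAC peak, 1439 bp away. A PVT peak of 1722 bp at chr16:43756927-43758648 lay inside the same NAC peak, with 12.5, 16.5, 5.72 and 10.4 CPM. A second block of NAC peaks lay in the distal introns, chr16:43797650-43801087 with 46.8, 42.2, 23.1 and 38.5 CPM and chr16:43801947-43804283 with 32.0, 31.6, 24.9 and 12.5, where CP and PVT had peaks as well. The COR peak, chr16:43809267-43809517, overlapped no peak of another region. By length, 89.4% of the PVT peaks at Drd3 fell within NAC peaks and 28.6% within CP peaks.

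Drd4, the smallest D2-like gene, carried little H3K27ac. In its window, CP had a peak of 251 bp and NAC 1 of 717 bp over the start site, PVT had 3 peaks downstream of it, the last within Deaf1, and COR had none. The Drd4 values were 16.95, 20.7, 1.37 and 7.27 CPM in CP, 9.29, 31.3, 0 and 8.13 in NAC, and 9.95, 2.90, 6.45 and 4.33 in PVT. The start site was thus marked in both striatal regions and the gene body or beyond in PVT.

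**Figure D2:**
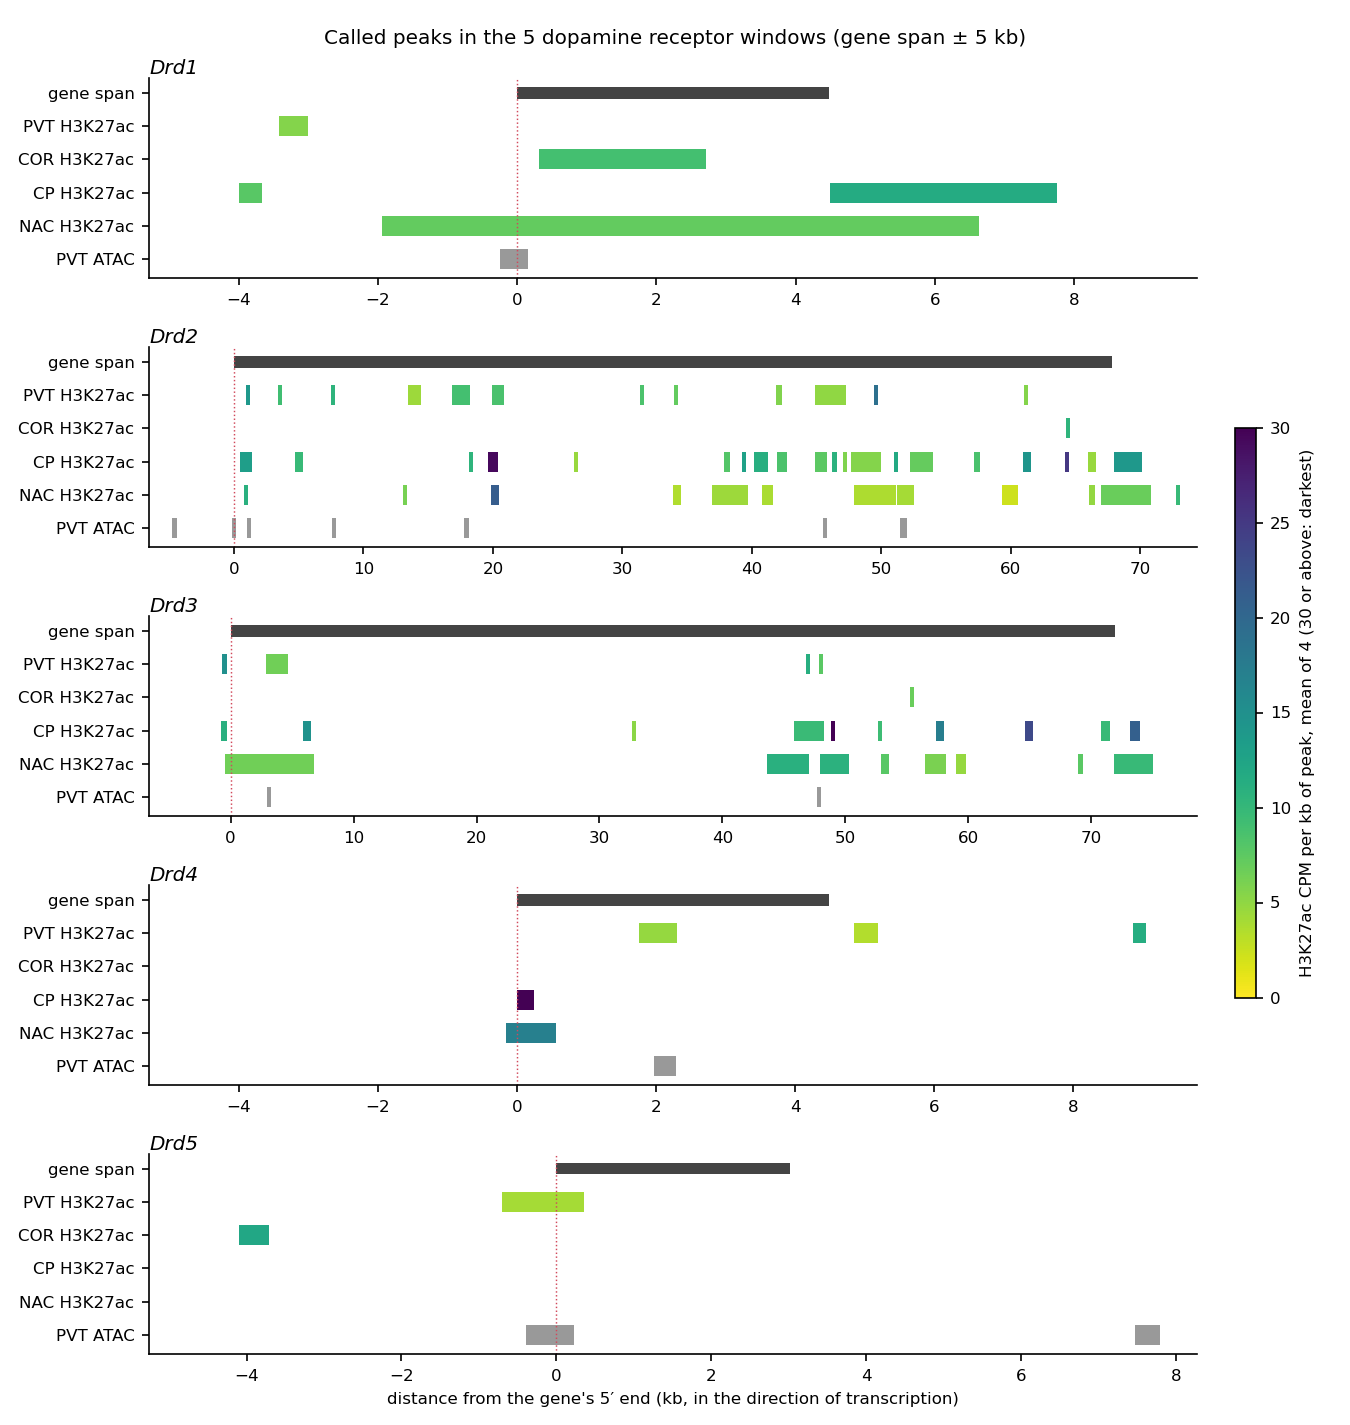
Positions of called peaks at the 5 receptor genes (horizontal axis, distance in kb from the 5′ end of the gene span along transcription), 1 row per table, with the gene span in dark grey and H3K27ac peaks coloured by mean CPM per kb of peak; the narrowest peaks are widened to remain visible. The single NAC peak over Drd1, the 20 CP peaks over Drd2 and the 7200 bp NAC peak at the 5′ end of Drd3 stand out, and the Drd5 start was under a peak in PVT alone.

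Against all genes with a peak in the same region, Drd2 ranked at the 93.6th percentile of summed CPM in CP, 87.5 in NAC, 77.2 in PVT and 9.62 in COR. Drd3 ranked at 94.2 in NAC, 89.3 in CP, 44.3 in PVT and 2.95 in COR, and Drd1 at 81.6, 70.6, 6.57 and 49.4. In the sums, the lowest region was thus COR for Drd2 and Drd3 and PVT for Drd1. Sums rise with the length of the peaks, and the ranks by CPM per kb of peak differed. Drd2 then ranked at 30.5 in CP, 16.6 in NAC, 55.6 in PVT and 86.6 in COR, the last from 1 peak of 336 bp. Drd3 ranked at 55.8 in NAC, 59.6 in CP, 61.3 in PVT and 42.8 in COR, and Drd1 at 40.2, 35.2, 22.6 and 75.5. By summed CPM, Drd4 ranked at 36.5 in CP, 35.3 in NAC and 16.7 in PVT, and Drd5 at 12.4 in PVT and 13.3 in COR. Per kb of peak, Drd4 ranked at 98.8, 95.3 and 22.6, and Drd5 at 5.09 and 92.3.

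Region differences were tested with the edgeR quasi-likelihood test on reads summed per gene, with genotype as a covariate and Benjamini-Hochberg adjustment over all genes, 2-sided, at an adjusted p under 0.05. A gene entered a pair of regions only if both had a peak, so 22 tests of members were made over 6 pairs; Drd4 could not be tested against COR, nor Drd5 outside COR and PVT. Of the 22, 4 passed, and 12 had an unadjusted p under 0.05, as did 22.7% of tests over all genes in the 6 pairs.

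In NAC against PVT, Drd1 and Drd3 were higher in NAC, 2 of the 4 members tested, where 23.2% of all genes passed and 11.3% were higher. Drd3 differed by 3.18 ± 0.37 on the log2 scale (SE, adjusted p = 6.9e-04, higher in 4 of 4 NAC libraries than in any PVT library). Drd1 differed by 6.32 ± 1.78 (SE, adjusted p = 0.0346), a fitted value set against PVT libraries of at most 7.84 CPM. Drd2 was at 0.64 ± 0.22 with an adjusted p of 0.0705, and Drd4 at 0.65 ± 1.57 with 0.810. The Drd3 call held without each library in turn; the Drd1 call was lost without PVT WT 1 (adjusted p = 0.117), PVT mutant 2 (0.0798), NAC WT 1 (0.0633) or NAC mutant 2 (0.0740), and held without NAC WT 2 (0.0454). Over the gene span without the 5 kb extension Drd1 had no PVT peak and could not be tested. Without NAC mutant 1, Drd2 passed as well (0.79, adjusted p = 0.0344). With the WT libraries alone, neither Drd3 (2.84, adjusted p = 0.0513) nor Drd1 passed.

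In NAC against COR, Drd3 was higher in NAC by 8.84 ± 1.88 on the log2 scale (SE, adjusted p = 0.0210), the 1 member of 3 that passed, where 7.5% of all genes passed and 3.56% were higher. This call was lost without COR WT 2 (adjusted p = 0.0514) or COR mutant 1 (0.0627), and with WT libraries alone (0.0660), and held without NAC WT 2 (0.0333). Drd1 stood at 1.57 ± 0.52 with an adjusted p of 0.103 and Drd2 at 5.01 ± 1.78 with 0.136. In CP against PVT, Drd2 was higher in CP by 1.55 ± 0.37 (SE, adjusted p = 0.0364), 1 of 4 members, where 9.34% of all genes passed and 5.53% were higher. It fell short without any 1 library other than CP WT 2, with adjusted p from 0.0742 to 0.118, and over the gene span without the 5 kb extension (1.18, adjusted p = 0.0979). Without CP WT 2, both Drd2 (1.76, adjusted p = 0.00161) and Drd3 (2.91, adjusted p = 0.0124) passed.

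No member passed in the other pairs. COR against PVT, where 27.8% of all genes passed, gave 4.86 ± 1.81 for Drd1 (adjusted p = 0.0774), -4.30 ± 1.84 for Drd2 (0.121), -6.61 ± 2.96 for Drd3 (0.134) and -4.19 ± 5.05 for Drd5 (0.585); Drd1 and Drd2 had an unadjusted p under 0.05, and DESeq2 called 3 members and 5642 genes in all, and without PVT mutant 1 Drd1 passed in edgeR (adjusted p = 0.0336). CP against COR, where 2.65% passed, gave 5.88 ± 2.03 for Drd2 (0.229) and 8.71 ± 2.84 for Drd3 (0.197), both with an unadjusted p under 0.05 and 2 members called by DESeq2 among 2047 genes it called in all, against 362 by edgeR; without CP WT 2, Drd3 passed in edgeR (adjusted p = 0.0336). NAC against CP, where 0.00747% passed, gave no member call by edgeR or DESeq2; Drd2 was at -0.85 ± 0.38 (adjusted p = 0.766), the 1 member with an unadjusted p under 0.05. The 3 comparisons with PVT share its 4 libraries, as the other regions share theirs.

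**Figure D3:**
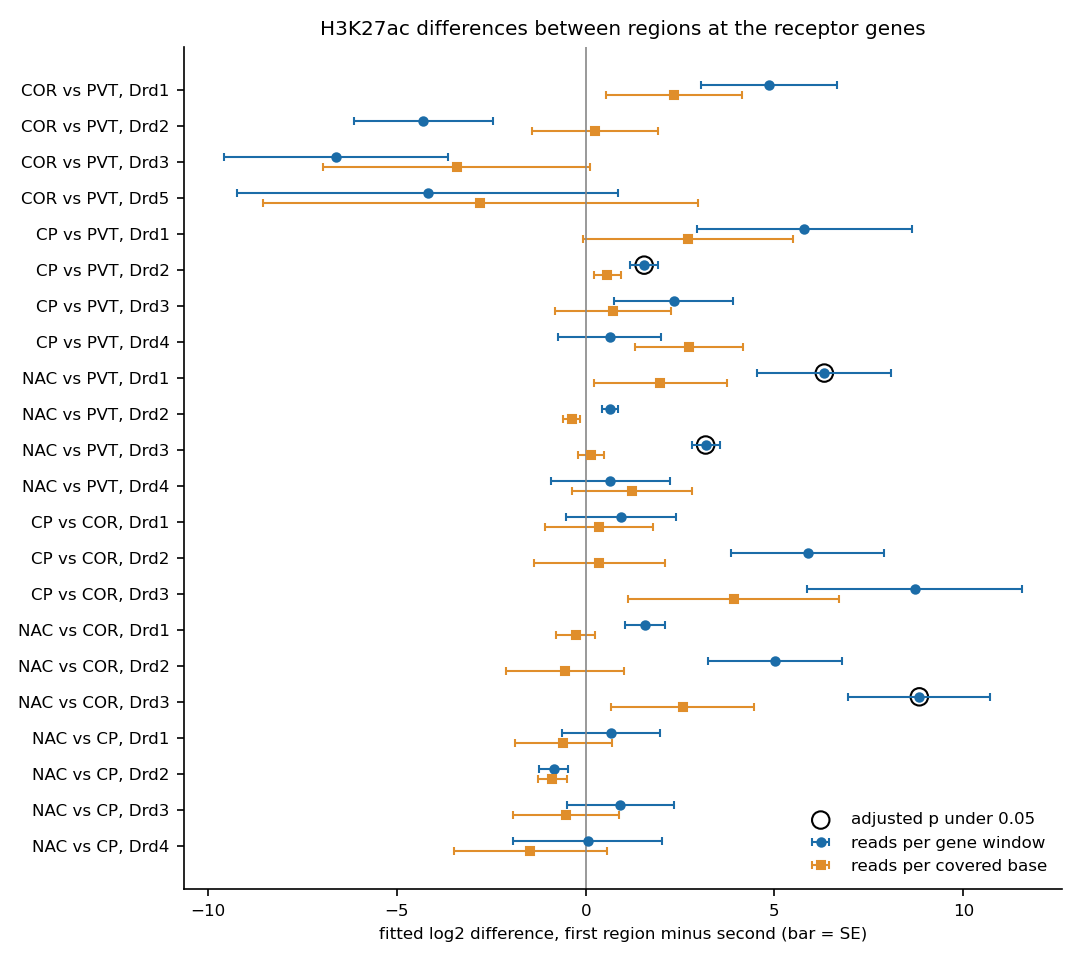
Fitted log2 differences in H3K27ac between regions for every member test (horizontal axis, first region minus second, bars are SE), for reads per gene window (blue circles) and per covered base (orange squares); black rings mark an adjusted p under 0.05. The 4 ringed values are Drd2 in CP against PVT, Drd1 and Drd3 in NAC against PVT and Drd3 in NAC against COR, and no orange value is ringed.

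Because peaks were called separately in each region, a summed value moves with the length that was called. Drd3 carried 8.25 ± 3.02 CPM per covered kb in NAC and 7.61 ± 2.22 in PVT (SD, n = 4), Drd1 7.17 ± 3.302 and 5.52 ± 8.91, and Drd2 10.6 ± 4.17 in CP and 7.28 ± 0.89 in PVT. For these 3 genes and pairs of regions, the values thus lay closer together per covered kb than in the sums. Drd4 went the other way, with 46.1 ± 35.3 CPM per covered kb in CP, from a peak of 251 bp, and 5.52 ± 2.86 in PVT, and so did Drd5, with 12.2 ± 22.7 in COR and 4.00 ± 2.14 in PVT (SD, n = 4). Tested per covered base, no member passed in any pair: Drd3 in NAC against PVT was at 0.15 ± 0.35 (SE, adjusted p = 0.964), Drd1 at 1.97 ± 1.76 (0.895), Drd2 in CP against PVT at 0.57 ± 0.36 (0.550) and Drd3 in NAC against COR at 2.57 ± 1.90 (1). On this scale few genes of any kind passed, 0 in NAC against PVT and 405 in CP against PVT.

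In PVT, open chromatin and H3K27ac covered different sets of receptor starts. ATAC peaks covered the start of Drd1 (site 1), Drd2 and Drd5, whereas H3K27ac covered that of Drd5 alone; over all RefSeq start sites, 31.1% were covered by ATAC and 31.5% by H3K27ac in PVT. ATAC values are CPM on the ATAC libraries' own TMM scale, and at the Drd2 start peak, chr9:49340195-49340523, they were 15.2, 5.92, 14.1 and 9.59. At the Drd1 start peak, chr13:54055506-54055903, they were 9.20, 6.66, 3.596 and 7.94, with the nearest PVT H3K27ac peak 3.0 kb away. At the Drd5 start peak, chr5:38319123-38319740, they were 8.33, 7.40, 1.03 and 8.49. WT and mutant libraries overlapped at all of these starts.

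Away from the starts, both ATAC peaks at Drd3, the 1 at Drd4 and 4 of the 7 at Drd2 overlapped a PVT H3K27ac peak. The 2 Drd3 peaks lay near the 5′ end, with 3.73, 0.740, 2.57 and 5.29 CPM, and in the distal introns, with 0.995, 4.44, 7.19 and 5.18. Summed over its 7 peaks, Drd2 had 48.5, 45.5, 40.1 and 43.1 CPM, the most accessible of the 5 windows in these sums, which were not divided by length.

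No peak at a dopamine receptor gene passed the test between mutant and WT. The edgeR test per peak called 0 of 21 member peaks in PVT, 0 of 4 in COR, 0 of 28 tested of 33 in CP, 0 of 22 in NAC and 0 of 12 tested of 13 in ATAC. The tables as a whole passed in 0% of peaks in PVT, 0% in COR, 0% in CP, 0.00286% in NAC and 0.00114% in ATAC. At an unadjusted p under 0.05 there were 1 member peak in PVT, 1 in COR, 4 in CP, 0 in NAC and 1 in ATAC, where 8.09%, 9.29%, 6.69%, 1.2% and 6.13% of all tested peaks were under 0.05. DESeq2 called 2 member peaks in PVT, 2 in COR and 6 in CP, and none in NAC or ATAC. In PVT, COR and CP it called 12261, 21623 and 20977 peaks in all, of 121536, 123573 and 79535 that passed the filter on low counts. Without CP WT 1, edgeR called 3 of the CP member peaks and 5436 CP peaks in all. With 2 libraries per group, the interval around each peak is wide, and a missed threshold does not show that the genotypes are alike.

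The member peaks nearest to a genotype difference were mostly short and often empty in 1 genotype. A PVT peak of 341 bp beyond the 3′ end of Drd4, chr7:141296823-141297163, had 2.57 and 2.09 CPM in WT and 0 in both mutants (edgeR adjusted p = 0.556). The COR peak of the Drd5 window had 0.920 and 17.7 CPM in WT and 0 in both mutants (edgeR adjusted p = 0.535). Both mutants were empty there, and the WT libraries themselves differed widely at the second. A CP peak of 1809 bp in the distal part of Drd2, chr9:49392561-49394369, went the other way, with 0 in both WT and 36.8 and 14.1 CPM in the mutants (edgeR adjusted p = 0.373). All 4 CP member peaks with an unadjusted edgeR p under 0.05 had 0 in both WT libraries. Of these, WT 2 is the CP library with 80.8% empty peaks. An accessible site in Drd2, chr9:49347906-49348234, had 7.83 and 7.77 CPM in WT and 1.54 and 3.31 in the mutants (edgeR adjusted p = 0.798). At the Drd4 start peak, both mutants were below both WT libraries in CP and again in NAC, with adjusted p of 1 in each by edgeR. That order held at 7.46% of all CP peaks and 8.72% of all NAC peaks. The highest value came from WT 2 in each region, with 80.8% and 69.6% empty peaks.

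Over the 80 H3K27ac peaks of the 5 windows, both mutants were above both WT libraries at 21 (26.2%) and below both at 14 (17.5%). Over all 525673 peaks of the 4 H3K27ac tables, the same held for 22.8% and 13.8%. With each table weighted by its number of receptor peaks, the shares over all peaks were 22.5% and 12.2%. A library with no read occurred at 54 of the 80, and at 66.0% of all peaks. Whether the genotype difference depended on region was tested for genes with a peak in all 4 regions, which were Drd1, Drd2 and Drd3, by edgeR over all 16 libraries. The lowest adjusted p was 0.574, for Drd3, the 1 member with an unadjusted p under 0.05. None passed, where 0.415% of 12036 genes did and 977 had an unadjusted p under 0.05; DESeq2 called 1 of the 3 and 711 genes in all, and edgeR called 2 without CP WT 1 and 1 without CP WT 2, with 1792 and 190 genes in all.

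Only the longer D2-like genes were counted in PVT RNA in all libraries. Drd2 and Drd3 had at least 10 reads in 20 of 20 libraries, with medians of 4.26 and 8.85 CPM, whereas Drd1, Drd4 and Drd5 reached 10 reads in 5, 7 and 5 libraries, with medians of 0.0342, 0.0709 and 0.0613 CPM. The total per library was 26719334 to 115285349 counts. Drd1 and Drd4 had 0 reads in 5 libraries each and Drd5 in 1; a count of 0 allows up to 3 reads, or 0.0344 to 0.222 CPM at Drd1, for counting error only. In this table counts followed gene length: across 20915 protein-coding genes the Spearman correlation of count with gene span was 0.755 to 0.878 in the 20 libraries, a description across genes, which are not independent. Per kb of gene span, the medians were 0.123 CPM for Drd3, 0.0628 for Drd2, 0.0203 for Drd5, 0.0158 for Drd4 and 0.00763 for Drd1, so by the median library Drd3 and Drd2 led on this scale as well, by a smaller margin. By the mean per kb, Drd1 led at 0.330 CPM, and stood at 0.0397, the lowest of the 5, when each gene was taken without its highest library; Drd3 went from 0.267 to 0.174 and Drd2 from 0.135 to 0.115.

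Drd3 RNA was 3.16, 8.14, 8.81 and 6.85 CPM in WT, and 5.49, 11.2, 145.5 and 8.90 in euthymic COX-positive mutants. It was 10.4, 8.11, 2.60 and 9.25 in euthymic COX-negative, 17.98, 60.5, 28.4 and 4.44 in depressive COX-positive, and 4.91, 18.7, 5.32 and 15.2 in depressive COX-negative mutants. Values overlapped between all 5 groups. The euthymic mutant against WT difference of 2.67 ± 1.40 on the log2 scale (SE, edgeR adjusted p = 0.358) came from groups in which 3 of 4 mutant libraries exceeded every WT library. In the same groups, the midline thalamus list had a median difference of -3.73 on the log2 scale (3 of 5 genes with an unadjusted p under 0.05, none passing), and the striatal and cortical lists 1.86 and 1.90, against -0.02 over all genes. The midline list summed to 27.5 to 2795 CPM in WT and 113 to 147 CPM in these mutants, the striatal list to 187 to 3539 and 231 to 583, and the cortical list to 13.3 to 55.6 and 10.8 to 94.7; their part in the result was not tested.

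Drd2 RNA was 4.76, 7.80, 34.0 and 8.48 CPM in WT, and 2.85, 12.6, 22.2 and 1.44 in euthymic COX-positive mutants. It was 2.31, 3.31, 4.37 and 1.48 in euthymic COX-negative, 4.14, 3.73, 21.2 and 13.1 in depressive COX-positive, and 2.36, 1.33, 29.2 and 2.07 in depressive COX-negative mutants. All 4 euthymic COX-negative libraries were below all WT libraries, at most 4.37 against at least 4.76 CPM. This pair of groups differs in both genotype and staining and was not tested, and the share of all genes with such a separation was not counted. In the RNA contrasts that were tested, which are other comparisons, Drd2 did not pass (edgeR adjusted p from 0.472 to 0.978). There, 15.3% to 22.8% of all genes had an unadjusted edgeR p under 0.05, which is not a share of genes with separated libraries. For Drd2, 1 high library set the mean in WT and in the depressive COX-negative group.

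Drd1 RNA was carried by a single library: 26.2 CPM (1791 reads) in 1 euthymic COX-positive mutant library, which held 88.6% of the Drd1 CPM summed over the 20 libraries, while the other 3 of that group had 0, 0.0356 and 0. The next highest were 1.39 CPM in a depressive COX-negative library and 1.25 in a WT library, and the other 17 libraries lay at or below 0.197 CPM. Drd4 ran from 0 to 1.55 CPM and every group had 1 library at 0. Drd5 was highest in 2 depressive COX-positive libraries, at 1.51 and 2.51 CPM, with the other 2 of the group at 0.0726 and 0.0179.

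**Figure D4:**
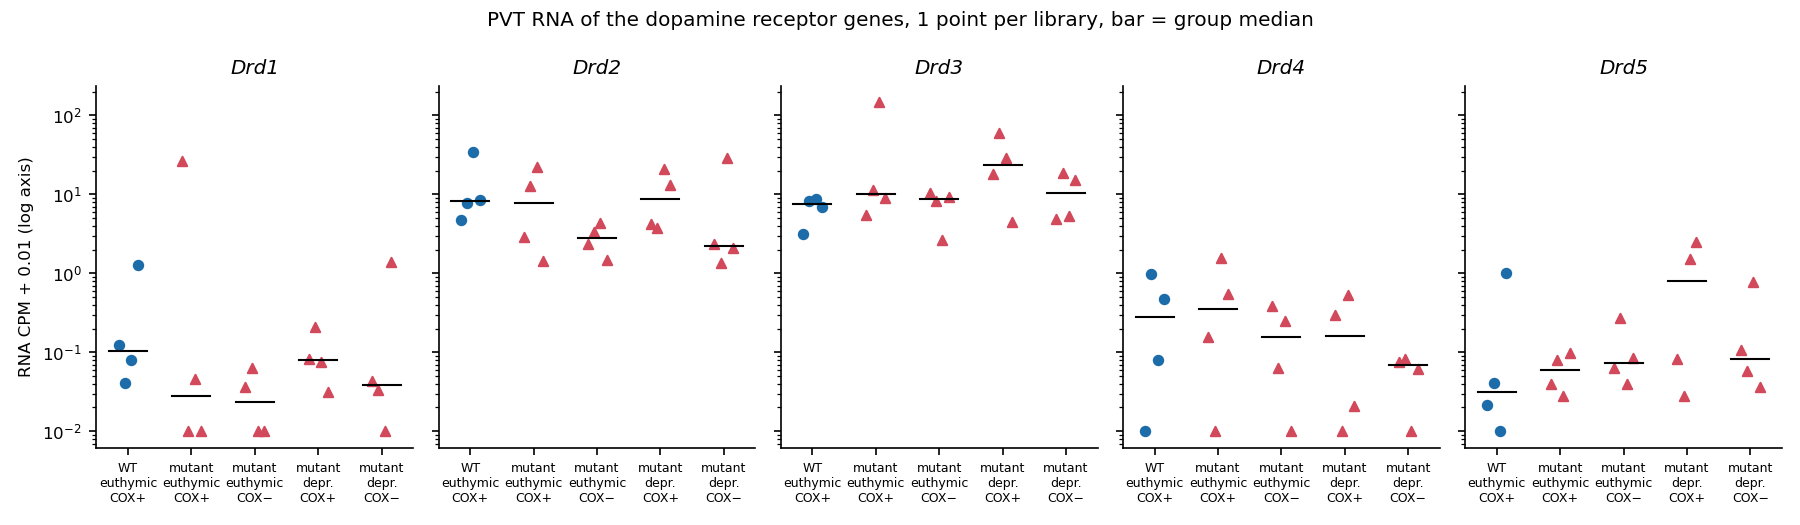
RNA of the 5 receptor genes in PVT (vertical axis, CPM plus 0.01 on a log axis) by group, 1 point per library with circles for WT and triangles for mutants, and the group median as a bar. Drd2 and Drd3 lay between 1.33 and 145.5 CPM in all 20 libraries, and Drd1, Drd4 and Drd5 were mostly below 1 CPM with single high libraries.

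No member passed in any of the 7 RNA contrasts by edgeR, with 35 member tests, adjusted p from 0.123 to 0.985 and 5 with an unadjusted p under 0.05, where 20.2% of tests over all genes were under 0.05. The share of all 28446 tested genes that passed was 0% in mutants against WT, 0% in each of the 4 single-state or single-stain contrasts, 0% for COX staining averaged over states and 1.24% for depressive against euthymic mutants averaged over staining. Of the 5 with an unadjusted p under 0.05, 3 were Drd1 and 2 were Drd5. Drd1 in COX-negative against COX-positive euthymic mutants stood at -8.00 ± 2.54 on the log2 scale (SE, adjusted p = 0.123), and at 0.96 without the 1 library at 26.2 CPM.

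Drd5 in depressive against euthymic COX-positive mutants stood at 4.29 ± 1.72 on the log2 scale (SE, edgeR adjusted p = 0.193), with 2 of 4 depressive libraries above the highest euthymic one. DESeq2 gave an adjusted p of 0.0415 for it, the only member it called in the RNA contrasts, among 2224 genes it called in that contrast. It gave no adjusted p for Drd1 in any contrast, nor for Drd4 and Drd5 in depressive against euthymic COX-negative mutants. Averaged over staining the Drd5 difference was 2.69 ± 1.15 (SE, edgeR adjusted p = 0.158). Cell type markers varied between the COX-positive libraries, with overlapping sums in the depressive and euthymic ones. The midline thalamus list summed to 50.7 to 239 CPM and the microglia list to 49.1 to 84.5 CPM in depressive libraries. In euthymic ones they summed to 113 to 147 and 32.3 to 72.2 CPM. The median log2 difference was 0.46 for the midline, 0.67 for the microglia, 1.83 for the cortical and -0.83 for the striatal list, against -0.04 over all genes. The part of these markers in the result was not tested. In bulk samples, fewer cells of a type and less RNA per cell cannot be told apart. Polg itself had 0.939 to 3.66 CPM in WT and 0.555 to 198.4 in the 16 mutant libraries, 11 of which exceeded every WT library. Those 16 include depressive and COX-negative libraries, which WT lacks. In the euthymic COX-positive mutants, the group matched to WT, Polg was 0.555, 2.39, 0.819 and 198.4 CPM. Only the 198.4 exceeded every WT library there. The share of all genes with such an order was not counted.

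Genes that carry the receptors' signal differed between regions at H3K27ac in both directions. Of 24 genes for receptor coupling and cAMP signalling, 10 were higher and 5 lower in NAC than in PVT, where 11.3% of all genes were higher and 11.9% lower, and the median difference was 0.41 on the log2 scale against -0.19 over all genes. In CP against PVT, 7 were higher and 3 lower, with backgrounds of 5.53% and 3.81% and medians of 0.28 against -0.48. Against COR, 6 were higher and 1 lower in CP (1.55% and 1.11% of all genes, medians 0.18 against -0.37), and 7 were higher and 2 lower in NAC (3.56% and 3.94%, medians 0.21 against -0.09). COR against PVT gave 7 higher and 6 lower (14.9% and 12.9%, medians -0.37 against -0.05), and in NAC against CP none passed (medians -0.33 against 0.22). The list of striatal markers itself had 4 of 5 genes higher in CP and in NAC than in PVT; its part in these counts was not tested. Per covered base, 4 genes of the signalling list were higher in CP than in PVT and none passed in the other pairs. Adcy5, the main striatal adenylyl cyclase, averaged 1086 CPM in CP, 646.7 in NAC, 219.4 in PVT and 88.9 in COR, and was higher in CP than in PVT by 2.34 ± 0.19 (SE, edgeR adjusted p = 4.8e-04). Rgs9, a regulator that shortens D2 receptor signalling, averaged 516.7 CPM in CP, 404.3 in NAC, 70.1 in COR and 24.0 in PVT, with a NAC minus PVT difference of 4.16 ± 0.30 (SE, edgeR adjusted p = 1.2e-04). Ppp1r1b, which encodes the cAMP-regulated phosphatase inhibitor DARPP-32, averaged 204.3 CPM in CP and 20.4 in PVT (3.35 ± 0.37, SE, edgeR adjusted p = 0.00142).

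Of the 7 direct-pathway genes usually found with Drd1, 2 of the 5 tested were higher in CP than in PVT and 1 of 5 in NAC. Over all genes, 5.53% were higher in CP than in PVT and 11.3% in NAC. Eya1, a transcriptional co-activator, averaged 15.2 CPM in PVT, 88.2 in CP, 126.2 in COR and 168.4 in NAC. In COR against PVT, 1 of 4 was higher and 2 were lower, where 14.9% of all genes were higher and 12.9% lower. Against COR, 2 of 5 were higher in CP and 1 of 5 in NAC (1.55% and 3.56% of all genes), and none of 7 passed between NAC and CP. Ebf1, a transcription factor of direct-pathway neurons, was lowest in COR at 4.67 CPM. Of the 6 indirect-pathway genes usually found with Drd2, 3 of 5 were higher and 1 lower in NAC than in PVT (11.3% and 11.9% of all genes). In CP against PVT, 2 of 5 were higher and 1 lower (5.53% and 3.81% of all genes), and none passed in the other pairs. Per covered base, none of the direct-pathway genes passed in any pair, and 1 of the indirect-pathway genes did, in CP against PVT. Adora2a, the adenosine receptor of indirect-pathway neurons, averaged 114.0 CPM in CP, 97.7 in NAC and 0.921 in PVT, while Grik3, a kainate receptor subunit, went the other way with 208.8 CPM in PVT and 59.5 in NAC (-1.78 ± 0.24, SE, edgeR adjusted p = 0.00114).

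Genes of dopamine synthesis, transport and breakdown mostly did not pass. Of 9, Maob was lower in NAC than in PVT (7.59 against 98.7 CPM), Aldh1a1 was higher in COR than in PVT (303.4 against 31.7 CPM), and Ddc, the decarboxylase that makes dopamine, was lower in COR (15.3 CPM) than in PVT (70.7) and than in NAC (113.3); none passed in CP against PVT, CP against COR or NAC against CP, and none in any pair per covered base. In RNA, no gene of these lists or of the marker lists, 12 in all, passed in any of the 7 contrasts by edgeR, and 80 of 525 tests of list genes (15.2%) had an unadjusted p under 0.05, against 20.2% of tests over all genes.

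Across the 16 H3K27ac libraries, the genes whose summed profile was most like Drd1 were Pla2g7 (Pearson r of log2 CPM 0.949), Kctd1 (0.945) and Rnf144a (0.933), among 12035 genes with a peak in all regions. For Drd2 they were Shb (0.964), Vit (0.960) and Ebf1 (0.953), and for Drd3 Unc13c (0.954), Vamp9 (0.940) and Lypd1 (0.933). Among the receptors themselves, Drd2 and Drd3 had r = 0.727, Drd1 and Drd3 0.501 and Drd1 and Drd2 0.0815. These are descriptions over 16 libraries that share 4 regions and 4 peak sets, with the same libraries empty at many peaks.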

How the data were processed

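The receptor genes, the gene lists, the tests and the rule for named genes were chosen with earlier results of these data known. The authors deposited whole-number raw counts, of genes in the RNA table and of peaks in the 5 chromatin tables. The submitters' processing notes name STAR, HOMER, featureCounts, Subread and DESeq2 and the build mm10, without roles or versions; the peak threshold, the treatment of duplicates, the strand setting and the features counted for RNA are not stated there. A chromatin table holds 1 peak set for the 4 libraries of a region, so peaks differ between regions. The 4 input libraries were not used.

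Peaks were assigned to gene spans extended by 5 kb (GenomicRanges 1.54.1). Differences were tested in R 4.3.3 by quasi-likelihood in edgeR 4.0.16, after TMM scaling and removal of low features with filterByExpr. Dispersions were robust, and p-values were adjusted over all features of a table by the Benjamini-Hochberg method. Genotype was tested per peak within a region, region on reads summed per gene with genotype as a covariate, and RNA in 1 model of 20 libraries with a mean per group (15 residual degrees of freedom, 28446 genes tested, common biological coefficient of variation 1.36). Of 53715 RNA identifiers, 53620 matched a symbol. Intervals and floors for counts of 0 cover counting error only, since reads carried no molecular identifiers.

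Alternatives were DESeq2 1.42.0, limma 3.58.1 (voom with quality weights, RNA), other scalings, no filter, other windows, covered length as an offset, WT libraries only, a replicate block and each library left out. No 2 libraries were identical. The named genes are the receptors, their neighbours, Polg, the 3 genes most correlated with each receptor that had a peak in all 4 regions, and from each pathway list up to 3 genes with the smallest p among those that passed in a comparison, some of which are given. Promoter sequences and start sites are from RefSeq (GRCm38.p6).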

Additional observations from a re-analysis of the deposited data

Results flagged for a closer look

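Of 47 groups of 4 libraries examined for the receptors, 10 held 1 library far from the other 3 of its group by Dixon's test at 95%, where chance gives about 1 in 20 groups of normally distributed values; these CPM are skewed, with many near 0, so the rate for them is not known. RNA accounted for 8 of them, among 25 RNA groups. Drd1 RNA stood at 1.25 CPM in 1 WT euthymic COX-positive library, with the next at 0.114. It stood at 26.2 CPM in 1 euthymic COX-positive mutant library, with the next at 0.0356, and at 1.39 CPM in 1 depressive COX-negative mutant library, with the next at 0.0327.

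Drd2 RNA stood at 34.0 CPM in 1 WT library, with the next at 8.48, and at 29.2 CPM in 1 depressive COX-negative mutant library, with the next at 2.36. Drd3 RNA stood at 145.5 CPM in 1 euthymic COX-positive mutant library, with the next at 11.2. Drd5 RNA stood at 1.004 CPM in 1 WT library, with the next at 0.0313, and at 0.772 CPM in 1 depressive COX-negative mutant library, with the next at 0.0982.

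In H3K27ac, Drd1 in PVT stood at 7.84 CPM in mutant 1, with the next library at 1.15, and Drd5 in COR at 17.7 CPM in WT 2, with the next at 0.920.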

How the results depend on the processing

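Counts of called members moved mainly with the tool, the covered length and the libraries; the cause was not tested except where the setting itself tests fewer samples or scales by length. DESeq2 called 2 member peaks between mutant and WT in PVT, 2 in COR and 6 in CP, against 0 by edgeR. It called 12261, 21623 and 20977 peaks in all, of 121536, 123573 and 79535 that passed the filter on low counts. Between regions it called 3 members in COR against PVT, 2 in CP against PVT, 3 in NAC against PVT, 2 in CP against COR, 2 in NAC against COR and 1 in the region by genotype test, with 5642, 3771, 5233, 2047, 2805 and 711 genes in all against 3978, 1264, 3242, 362, 1060 and 50 by edgeR. In depressive against euthymic COX-positive RNA it called 1 member and 2224 genes in all. Per covered base, 0 members were called in CP against PVT, NAC against PVT and NAC against COR, where all genes gave 405, 0 and 1 calls. Without the window extension, 0 members were called in CP against PVT and 1 in NAC against PVT, with 1065 and 2691 genes in all. With an extension of 10 kb, 1 was called in COR against PVT, 3 in NAC against PVT and 2 in NAC against COR. All genes then gave 4646, 3801 and 1278 calls. With WT libraries only, 1 member was called in COR against PVT, with 1321 genes in all. None was called in CP against PVT, NAC against PVT or NAC against COR, with 0, 674 and 0 genes in all.

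The shared replicate numbers of the chromatin libraries were not shown to pair them, since deviations of same-numbered libraries correlated at only -0.054 to 0.120. With the replicate number as a block, 0 members were called in CP against PVT and 1 in NAC against PVT, with 778 and 2444 genes in all. The 1 was Drd3, with Drd1 at an edgeR adjusted p of 0.0673. Drd4 in NAC against CP moved from 0.05 to -0.97, and no other count of called members changed. No paired analysis was possible for RNA because its columns carry no replicate number.

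Leaving out each library in turn, the count of called members ranged from 0 to 1 in COR against PVT and 0 to 2 in CP against PVT. At the highest count, 3109 and 2774 genes were called in all. The count ranged from 1 to 3 in NAC against PVT and 0 to 1 in CP against COR, with 3130 and 844 genes in all at the highest. In NAC against COR it ranged from 0 to 1, with 604 to 1245 genes in all. It stayed at 0 in NAC against CP and in the RNA contrasts. The genotype and region by genotype tests then rest on 1 library in a group, so their counts are left out here.

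Of 57 member differences, 28 kept their direction under every alternative. The others were not called in edgeR with all libraries, and on the log2 scale they turned as follows. Per covered base, Drd2 moved to 0.24 in COR against PVT, -0.37 in NAC against PVT and -0.55 in NAC against COR, Drd1 to -0.27 in NAC against COR, and in NAC against CP Drd1 to -0.59, Drd3 to -0.52 and Drd4 to -1.46. With a 10 kb extension, Drd4 moved to -1.50 in CP against PVT, -2.44 in NAC against PVT and -0.91 in NAC against CP. With WT libraries only, Drd5 in COR against PVT moved to 0.93. With limma's voom and quality weights, Drd1 RNA moved to -1.14 in mutants against WT and 0.46 in depressive against euthymic mutants averaged over staining, and Drd3 to 0.012 in depressive against euthymic COX-positive mutants. Averaged over staining, Drd3 in depressive against euthymic mutants moved from -0.04 to 0.27 with DESeq2 size factors, 0.0035 with total counts, 0.27 with DESeq2, 0.30 with voom and 0.25 without the filter on low counts.

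Without 1 library, Drd4 ranged from -0.0026 to 1.28 in NAC against PVT and from -1.35 to 0.70 in NAC against CP, and Drd1 from -0.64 to 1.34 in CP against COR. In RNA of mutants against WT, Drd1 ranged from -4.06 to 6.74, Drd2 from -1.26 to 0.48, Drd4 from -0.72 to 1.61 and Drd5 from -2.74 to 1.64. For COX-negative against COX-positive, Drd1 ranged from -9.24 to 0.96 and Drd5 from -0.12 to 1.42 in euthymic mutants, Drd1 from -2.21 to 2.99 and Drd2 from -2.39 to 0.18 in depressive mutants, and Drd1 from -5.19 to 1.43 averaged over states. For depressive against euthymic, Drd1 ranged from -7.15 to 3.04, Drd2 from -0.36 to 0.90 and Drd3 from -1.33 to 1.71 in COX-positive mutants, Drd1 from -0.15 to 5.04, Drd2 from -0.33 to 1.96 and Drd5 from -0.82 to 2.12 in COX-negative mutants, and Drd1 from -3.13 to 3.51, Drd2 from -0.036 to 1.25 and Drd3 from -0.30 to 1.13 averaged over staining.

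The genotype comparison rests on 2 libraries per genotype and region, and 54 of 80 receptor peaks were empty in at least 1 library. In RNA, Drd1, Drd4 and Drd5 had under 10 reads in 15, 13 and 15 of 20 libraries.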
